A study of Mus musculus with 30 samples.

Results

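Adipose-derived stem cells (ADSC) were compared with 2 kinds of mouse fibroblast, neonatal fibroblasts (MNF) and adult lung fibroblasts (MAF). Genes were selected whose microarray intensity in ADSC was at least 4-fold above both fibroblast samples, or at least 4-fold below both. The rule selected 143 of the 13511 named genes measured in this group of arrays, 67 high in ADSC and 76 low, and the level of these genes was then followed in ADSC CiPS2, a chemically induced pluripotent stem cell (CiPSC) line labelled as derived from ADSC. The study as a whole profiled 30 samples from mouse somatic cells, cells during chemical treatment and pluripotent lines, in 5 sets that were normalized separately. The present comparison lies within set 2, which holds 9 samples. Each is deposited as 1 column that, per the design text, appears to be the average of 3 replicate arrays.

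ADSC came from adult mice, MNF from neonatal mice and MAF from adult mouse lung. All 3 were untreated and were grown in the same medium, high-glucose DMEM with fetal bovine serum. ADSC CiPS2 was made with the compound combination labelled VC6TFMPS+Z. Its title and cell line name ADSC as the origin, while its source field names adult lung fibroblasts, and the origin could not be settled from the labels. The lines compared with it were MNF CiPS1 (VCT6FMDBR+Z), MAF CiPS3 (VC6TFDM+Z) and CiPS45, which was made from embryonic fibroblasts with FC6+Z. The other pluripotent samples were OSKM iPS2, an untreated iPSC line made with the Yamanaka factors from embryonic fibroblasts, and ESC2, the embryonic stem cell line TT2. All 6 pluripotent samples were grown on feeder layers of mitomycin C-treated embryonic fibroblasts, whose part in the RNA was not tested. For these samples the strain, the genotype, the fat depot, the tissue of the neonatal fibroblasts, the passage number and the number of animals were not stated. Each population had 1 sample, so the differences below have no replicate check, no spread and no test, and are differences between these samples. Several compound sets and origins change together between the CiPSC lines and cannot be told apart.

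Adipose-derived stem cells are the adherent, fibroblast-like cells that grow out of the stromal vascular part of adipose tissue and can be turned into fat, bone and cartilage cells in culture. Fibroblasts from different places in the body look alike but keep records of their origin, including the pattern of Hox genes and of the signalling and matrix genes they use. Several gene classes below have a role in such differences. Activin, EGF family ligands and Wnt modulators signal between stromal cells and their neighbours, and small nucleolar RNAs (snoRNAs) guide the chemical modification of ribosomal RNA, mostly from within introns of other genes.

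The ADSC label was set against marker genes. Of 25 listed markers of adipose stromal cells, 19 were measured, and 2 were highest in ADSC, 8 in MNF and 9 in MAF. None was 4-fold above or below both fibroblast samples, against 0.496% and 0.563% of all genes. The summed intensity of these 19 genes was 49688 in ADSC, against 97900 in MNF and 76860 in MAF. Cd34, a sialomucin of adipose progenitors and endothelium, read 492 in ADSC, against 411 in MNF and 5019 in MAF. Thy1, a surface antigen of mesenchymal cells, read 6971 in ADSC, against 42557 in MNF and 12750.5 in MAF. Eng, a TGF-beta coreceptor, read 1304 in ADSC, against 2999 in MNF and 1980 in MAF. These surface markers therefore did not set ADSC above the fibroblasts, and the cells are called ADSC here because the labels do so. Pparg, Fabp4, Ly6a, Cd44, Pdgfra and Col1a1 had no value in set 2. Of the fat cell markers, only Adipoq and Plin1 were measured, with a sum of 132 in ADSC, 147 in MNF and 119 in MAF.

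Markers of other cell types also differed. Of 8 measured endothelial markers, 7 were highest in ADSC, with a sum of 5710 in ADSC, 3212 in MNF and 3377 in MAF. All 4 measured macrophage and leukocyte markers were highest in MAF, with a sum of 1269 in ADSC, 1054 in MNF and 16723 in MAF. Of the 7 epithelial markers, 3 were highest in ADSC and 4 in MNF, and they summed to 2321 in ADSC, 58406 in MNF and 1256 in MAF, with Krt14 alone at 55217 in MNF. All 5 measured lung fibroblast markers were highest in MAF, with a sum of 1257 in ADSC, 1114 in MNF and 10613 in MAF. The part of such cells in the differences described below was not tested, and in bulk RNA fewer cells of a type and less RNA per cell cannot be told apart.

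Over all named genes, ADSC lay closer to MAF than to MNF. The correlation of log2 intensity was 0.936 between ADSC and MAF, 0.871 between ADSC and MNF and 0.87 between MNF and MAF, over 13511 genes that share the arrays and their normalization. ADSC was within 2-fold of MAF for 83.9% of genes and within 2-fold of MNF for 66.2%. At least 4-fold differences numbered 502 between ADSC and MAF and 1332 between ADSC and MNF. Among 443 genes at least 4-fold higher in MNF than in MAF, ADSC was within 2-fold of MAF for 301 and within 2-fold of MNF for 46. Among 825 genes at least 4-fold lower in MNF than in MAF, these numbers were 476 and 168.

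In total, fewer genes set ADSC apart from both fibroblasts (143) than set MNF (697) or MAF (217) apart from the other 2 samples. The rule called 67 genes high in ADSC (0.496% of those measured) and 76 low (0.563%). Applied to MNF in the same way, it called 252 genes above both other samples (1.87%) and 445 below (3.29%). Applied to MAF, it called 171 above (1.27%) and 46 below (0.34%). The median fold difference of the members to the nearer fibroblast sample was 5.60 for the high genes and 4.79 for the low genes, and 13 high and 16 low genes reached 8-fold.

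**Figure D1:**
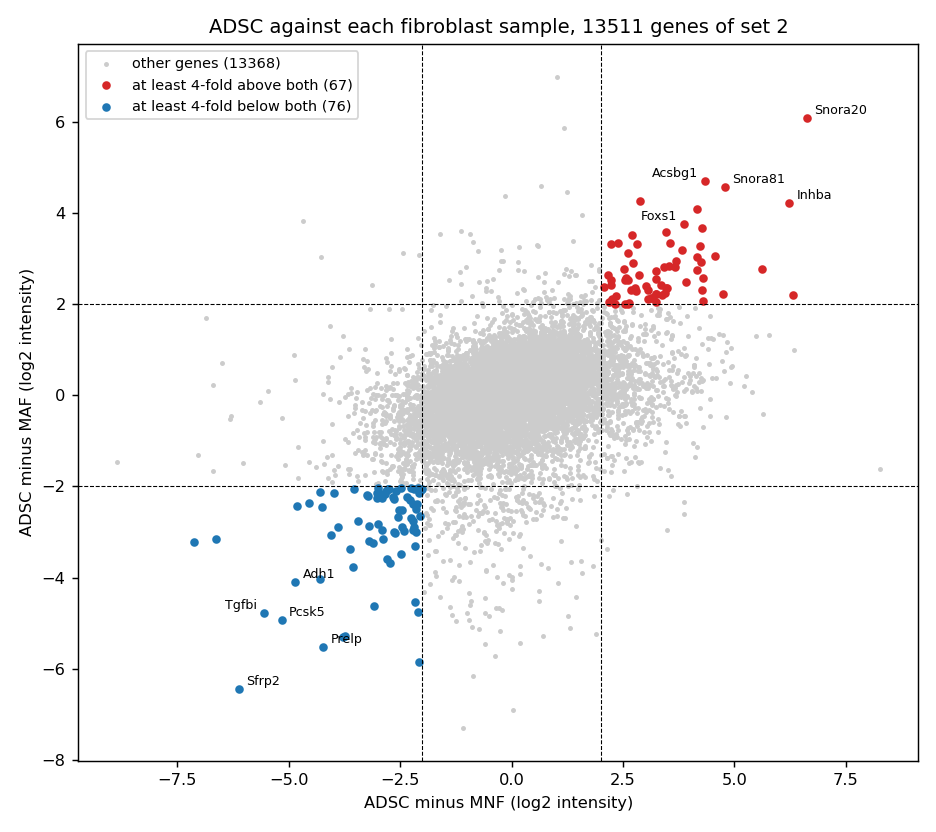
Log2 difference of ADSC from MNF (x axis) and from MAF (y axis) for 13511 genes. Genes at least 4-fold above both samples (67) or below both (76) are coloured, and the 5 genes of each direction that lead the order of size are named, led by Snora20 and Sfrp2.

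Some of these values come from dim spots. The lowest of the 3 somatic levels was under an intensity of 50 for 12 high and 14 low genes, and even the higher side was under 500 for 11 high and 25 low genes. Where an intensity was under the 5th percentile of set 2, 38.5, the folds and log2 differences to the nearer fibroblast given below are counted from that value and are written as at least that large, except where a measured value is named. The selection itself used the measured values. Counted from 38.5, 7 low genes were under 4-fold, Arvcf (-1.77), Grk3 (-1.73), Eya1 (-1.66), Epha7 (-1.62), Ace (-1.61), Unc45b (-1.55) and Cdhr4 (-1.06), and all 67 high genes still reached it. By measured values, a few genes lay close to the limit. The high genes nearest to it were Dbf4, 1700102H20Rik and Hspb2, with log2 differences of 2.00 to 2.01, and Guca1a, Trpc6 and Cenpw fell just short at 1.97. The low genes nearest to it were Adssl1 at -2.01, Kcnj15 at -2.03 and Col18a1 at -2.03, and Fcgrt (-1.97), Mreg (-1.96) and Apoe (-1.95) fell just short.

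The 67 high genes comprised 54 protein-coding genes, 8 snoRNAs, 3 long noncoding RNAs, 1 Y RNA and 1 gene without a RefSeq match. The 76 low genes comprised 75 protein-coding genes and 1 long noncoding RNA. The gene span had a median of 12.6 kb for high protein-coding genes and 29.8 kb for low ones, against 21.3 kb for all protein-coding genes measured.

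Small noncoding RNAs headed the high genes. Snora20, an H/ACA snoRNA of a class that guides pseudouridylation, read 2356 in ADSC, against 23.8 in MNF and 34.3 in MAF, a log2 difference of at least 5.94 to the nearer fibroblast. Snora81 read 1829 in ADSC, against 66.6 in MNF and 76.5 in MAF, 23.9-fold above the nearer fibroblast. Gm12238, annotated as a snoRNA, read 457 in ADSC, against 25.6 in MNF and 26.7 in MAF, a log2 difference of at least 3.57. In each case both fibroblasts were near the bottom of the intensity range and ADSC was well above it. AF357399, another snoRNA, read 445 in ADSC, against 23.8 in MNF and 45.9 in MAF. Rny1, a Y RNA that binds the Ro protein, read 2719 in ADSC, against 230.4 in MNF and 268 in MAF, 10.2-fold above the nearer fibroblast. The remaining snoRNAs among the members were Snora30 (688, 112 and 78.8 in ADSC, MNF and MAF), Snora3 (760.4, 67.4 and 148), Snora41 (431, 51.8 and 86.7) and Snora21 (206, 21.7 and 43.9).

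As a class, the snoRNAs on the array leaned the same way. Of 43 measured snoRNAs, the 8 members included, 18 (41.9%) were at least 2-fold above both fibroblasts, against 3.51% of all genes. ADSC was above both fibroblasts by any amount for 31 of them (72.1%), against 29.9% of all genes. The median log2 difference of ADSC from the mean of the fibroblasts was 1.07 over the snoRNAs and -0.03 over all genes. The median snoRNA intensity was 340.5 in ADSC, against 86.8 in MNF and 89.3 in MAF. Other small RNA classes had few genes. At least 2-fold above both fibroblasts were 2 of 2 Y RNAs, Rny1 included, 1 of 4 small nuclear RNAs (snRNAs) and 0 of 2 guide RNAs. The median log2 difference from the mean of the fibroblasts was 1.06 over the snRNAs. The 60 measured miRNA genes did not share this lean, with a median difference of 0.07. The rule selected none of them, against 0.496% of all genes high and 0.563% low. Not every snoRNA was high in ADSC: Snora16a read 106 in ADSC, against 64.4 in MNF and 4132 in MAF.

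The genes that enclose the snoRNAs mostly did not show the difference. Tcp1, a subunit of the chaperonin that folds actin and tubulin, encloses Snora20 and read 3018 in ADSC, against 4296 in MNF and 1942 in MAF. G3bp1, a stress granule protein, encloses Gm12238 and read 6711 in ADSC, against 3444 in MNF and 7634 in MAF. In both genes ADSC lay between the fibroblasts, whereas Snora20 and Gm12238 were far above both. For Snora3 and its enclosing gene Rpl27a the log2 differences of ADSC from the mean of the fibroblasts were 2.93 and -0.20, and for Snora30 and Srcap, a chromatin remodeller, 2.87 and -1.56. The probe for Eif4a2, which encloses Snora81, was dim in all 3 samples (63.4, 69.1 and 47.1), as was that for Eef1b2, which encloses Snora41 (114, 77.5 and 105). An exception was Rps16, a ribosomal protein gene that encloses AF357399 and was itself a member, at 926 in ADSC, against 144 in MNF and 186 in MAF. Among genes around snoRNAs that were not members, Tpt1, around Snora31, read 431 in ADSC, against 47.8 in MNF and 149 in MAF. Nop56, around Snord57, read 4070 in ADSC, against 231 in MNF and 3042 in MAF. Enclosure was read from RefSeq gene spans without regard to strand.

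**Figure D2:**
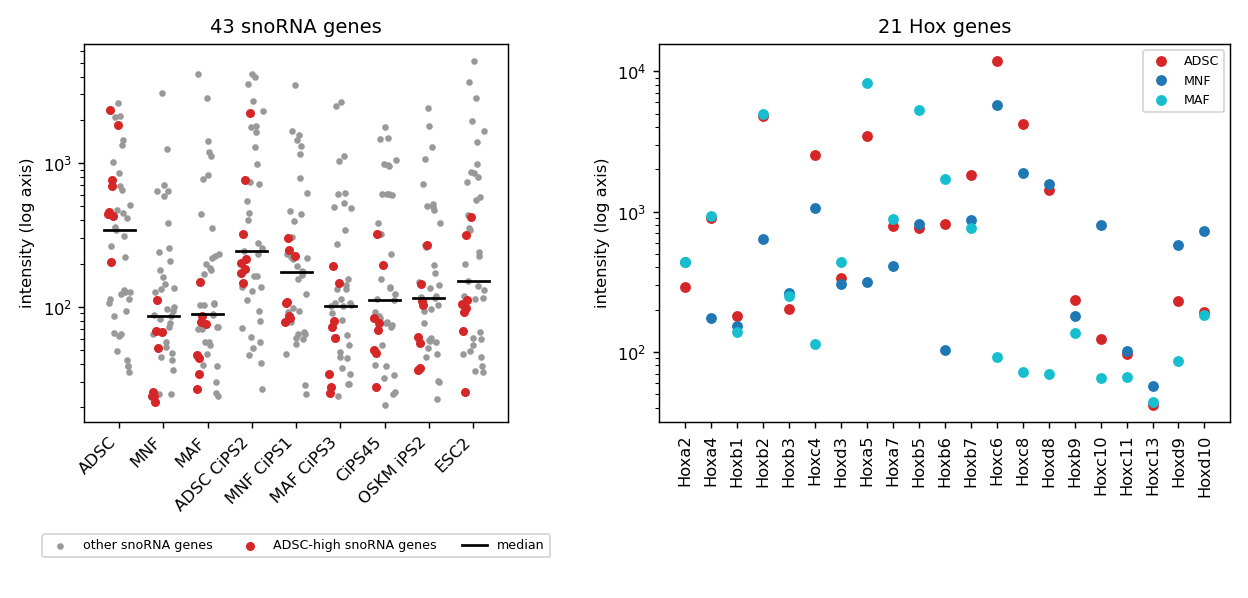
Left, intensity (log axis) of 43 snoRNA genes in the 9 samples of set 2, 1 point per gene, with the ADSC-high members in red and the median as a line. Right, intensity (log axis) of the measured Hox genes in ADSC, MNF and MAF, 1 point per sample. The median snoRNA intensity is highest in ADSC, at 340.5, followed by ADSC CiPS2, at 246, and Hoxc6 and Hoxc8 are low in MAF only.

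Secreted signals and their receptors formed another group among the high genes. Inhba, the subunit that makes activin A, read 5529 in ADSC, against 73.7 in MNF and 295 in MAF, 18.7-fold above the nearer fibroblast. Hbegf, a membrane-anchored ligand of the EGF receptor, read 3642 in ADSC, against 340.5 in MNF and 519 in MAF, 7.02-fold above. Lipg, the endothelial lipase that acts on lipoprotein phospholipids, read 1629.8 in ADSC, against 84.8 in MNF and 127 in MAF, 12.8-fold above. All 3 were lowest in MNF. Il1a, an interleukin released from stressed cells, read 2087 in ADSC, against 107 in MNF and 493 in MAF. Gal, the neuropeptide galanin, read 1012 in ADSC, against 146 in MNF and 208 in MAF. Adcyap1r1, the receptor for the neuropeptide PACAP, read 3250 in ADSC, against 228 in MNF and 358 in MAF, 9.09-fold above the nearer fibroblast. Tnfrsf12a, the receptor for the cytokine TWEAK, was bright in all 3 samples and highest in ADSC, at 32481 in ADSC, against 1662 in MNF and 5414 in MAF. Htr2b, a serotonin receptor, read 1388 in ADSC, against 241 in MNF and 203 in MAF. Lgr6, a receptor for R-spondins, read 484 in ADSC, against 59.4 in MNF and 92.2 in MAF.

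The matrix genes among the high members were few. Cthrc1, a secreted glycoprotein induced in repair, read 11726 in ADSC, against 608 in MNF and 2349 in MAF. Mfap5, a component of elastic microfibrils, read 7384 in ADSC, against 1573 in MNF and 1368 in MAF. Has1, a hyaluronan synthase, read 1123 in ADSC, against 119.5 in MNF and 269.7 in MAF, and Epyc, a small leucine-rich proteoglycan of cartilage, read 1207 in ADSC, against 266 in MNF and 292 in MAF. Of 13 measured general fibroblast matrix genes, Mfap5 was the only one at least 4-fold above both fibroblasts (0.496% of all genes were). None was 4-fold below both, against 0.563% of all genes, but 3 (23.1%) were at least 2-fold below both, against 3.86% of all genes. The median log2 difference from the mean of the fibroblasts was -0.66, against -0.03 for all genes.

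The high members included 3 keratins and some junction genes. Krt8, a keratin of simple epithelia and mesothelium, read 4569 in ADSC, against 254 in MNF and 681 in MAF, 6.71-fold above the nearer fibroblast. Krt7, another simple-epithelial keratin, read 3614 in ADSC, against 716 in MNF and 794 in MAF, and Krt20, a keratin of gut and bladder epithelium, read 1567 in ADSC, against 81.8 in MNF and 204 in MAF. All 3 were lowest in MNF, unlike the keratins of stratified epithelia, of which Krt14 read 532 in ADSC, against 55217 in MNF and 455 in MAF and Krt5 read 128 in ADSC, against 2397 in MNF and 125 in MAF. Of 13 measured epithelial genes, Krt8 was the only one to meet the rule, against 0.496% of all genes high and 0.563% low, and the median log2 difference was -0.02. At least 2-fold above both fibroblasts were 4 of the 13 (30.8%), against 3.51% of all genes. At least 2-fold below both was 1 (7.69%), against 3.86% of all genes. Of 9 measured mesothelial genes, Krt8 and Krt7 were 4-fold above both fibroblasts (0.496% of all genes were) and 3 were at least 2-fold above both (3.51% of all genes). The median log2 difference of these 9 was 0.66, against -0.03 for all genes. Msln, which defines mesothelium, read 249.6 in ADSC, against 141 in MNF and 176 in MAF, and Upk3b, another mesothelial marker, read 45.9 in ADSC, against 55.4 in MNF and 345 in MAF. Of 7 listed mesothelial markers, Msln and Upk3b included, 4 were measured, 2 of them highest in ADSC and 2 in MAF. The measured ones summed to 2538 in ADSC, 488 in MNF and 1774 in MAF. Cdh5, the endothelial cadherin, read 1938 in ADSC, against 128 in MNF and 346 in MAF, and was the only one of 10 measured endothelial genes to meet the rule, against 0.496% of all genes. Among other endothelial genes, Pecam1 read 146 in ADSC, against 95.5 in MNF and 129 in MAF, and Kdr, a VEGF receptor, 271 in ADSC, against 164 in MNF and 151 in MAF. Egfl7, an endothelial secreted factor, was brighter, at 2187 in ADSC, against 1755 in MNF and 1619 in MAF. Jam2, a junctional adhesion molecule, read 2960.5 in ADSC, against 37.5 in MNF and 638 in MAF. Mpp5, a scaffold of cell polarity, read 3280.1 in ADSC, against 349 in MNF and 497 in MAF. Fermt1, an integrin activator of epithelia, read 646 in ADSC, against 137 in MNF and 64.5 in MAF.

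Among transcription factors, Foxs1, a forkhead factor found in perivascular cells, read 18813 in ADSC, against 1289.8 in MNF and 1375 in MAF, 13.7-fold above the nearer fibroblast. Elf3, an ETS factor of epithelia, read 527 in ADSC, against 47.8 in MNF and 43.9 in MAF, a log2 difference of 3.46. Hey1, an effector of Notch, read 462 in ADSC, against 36.4 in MNF and 65.8 in MAF, and Mycl, a member of the Myc family, read 623 in ADSC, against 60.5 in MNF and 116 in MAF. Foxs1 was well expressed in both fibroblasts, whereas the other 3 were dim there.

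Enzymes of lipid, amino acid and nucleotide metabolism made up a further group. Acsbg1, which activates long-chain fatty acids as CoA esters, read 2495 in ADSC, against 123 in MNF and 95.2 in MAF, 20.2-fold above the nearer fibroblast and the largest difference of a protein-coding gene among the high members. Psph, the phosphatase of the last step of serine synthesis, read 5187 in ADSC, against 405 in MNF and 666 in MAF. Cth, which makes cysteine from cystathionine, read 3723 in ADSC, against 395 in MNF and 635 in MAF. Gmps, which makes GMP, read 7935 in ADSC, against 161 in MNF and 1167 in MAF. All 3 were lowest in MNF. Gsta4, a glutathione transferase, read 6445 in ADSC, against 1100.2 in MNF and 1117 in MAF. Gsta3, of the same family, read 1100.2 in ADSC, against 99.5 in MNF and 215 in MAF. Within the 20 measured genes of glutathione, oxidative stress and xenobiotic metabolism, these 2 were at least 4-fold above both fibroblasts and Cyp7b1 4-fold below both, against 0.496% and 0.563% of all genes. Slc20a1, a phosphate transporter, read 15502 in ADSC, against 2498 in MNF and 3773 in MAF.

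Several genes of the stress response and of neurons were high as well. Cryab, a small heat shock protein, read 30882 in ADSC, against 4371 in MNF and 3087 in MAF, 7.06-fold above the nearer fibroblast. Hspb2, a small heat shock protein gene that lies within the RefSeq span of Cryab on chromosome 9, read 247 in ADSC, against 49.7 in MNF and 61.4 in MAF. Uchl1, a ubiquitin hydrolase abundant in neurons, read 12921 in ADSC, against 1119 in MNF and 1812 in MAF. Nefm, a neurofilament subunit, read 646 in ADSC, against 97.3 in MNF and 86.7 in MAF, and Stmn4, a stathmin of neurons, read 540.1 in ADSC, against 82.7 in MNF and 47.1 in MAF. Serpinb9b, of the granzyme-inhibiting serpins, read 2204 in ADSC, against 93.8 in MNF and 264 in MAF, and Ttc9, a tetratricopeptide repeat protein, read 1275 in ADSC, against 70.9 in MNF and 155 in MAF. Outside the 15 genes that led the order, the log2 differences to the nearer fibroblast ran from 2.00 to 2.88, the largest being that of Myl7, an atrial myosin light chain, at 323 in ADSC, against 43.8 in MNF and 16.9 in MAF.

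**Figure D3:**
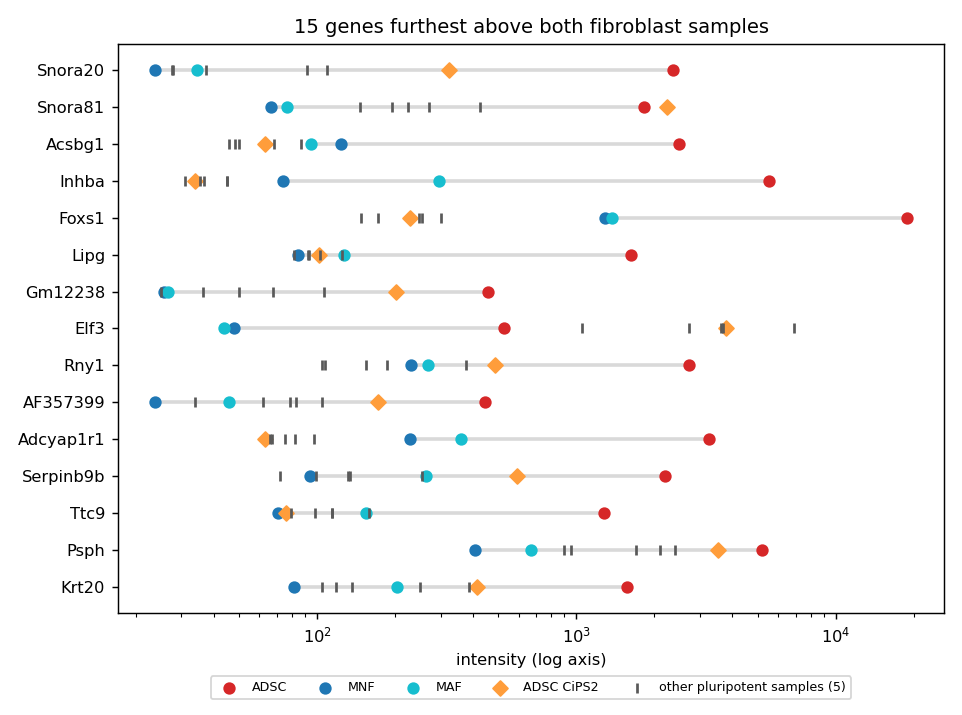
Intensity (log axis) in ADSC, MNF and MAF of the 15 genes furthest above both fibroblasts, 1 point per sample, with ADSC CiPS2 as a diamond and the 5 other pluripotent samples as short bars. In every gene the ADSC point lies at least 4-fold above both fibroblast points, as for Inhba with 5529 in ADSC, against 73.7 in MNF and 295 in MAF.

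The low genes included secreted modulators of Wnt and insulin-like growth factor signalling. Sfrp2, a secreted Frizzled-related protein that binds Wnts, read 141 in ADSC, against 9749 in MNF and 12228 in MAF, 69.3-fold below the nearer fibroblast and the largest difference of all low members. Dkk3, a member of the Dickkopf family, read 1480.4 in ADSC, against 17412 in MNF and 20272 in MAF. These were the 2 low members among 22 measured BMP and Wnt genes, of which none was high, against 0.563% of all genes low and 0.496% high. Igfbp5, which binds insulin-like growth factors, read 1075 in ADSC, against 14244 in MNF and 41695 in MAF, 13.3-fold below. Igfbp3, the main carrier of these factors in serum, read 666 in ADSC, against 3101 in MNF and 3489 in MAF. Igf2, the fetal growth factor, read 384 in ADSC, against 37917 in MNF and 3417 in MAF, 8.89-fold below MAF and much further below MNF. H19, the noncoding RNA next to Igf2 in the same imprinted cluster on chromosome 7, read 258 in ADSC, against 35987 in MNF and 2396 in MAF. For Igf2 and H19 the order ADSC, MAF, MNF was the same, with MNF far above the others. Of 19 measured imprinted genes, these 2 met the rule (0.563% of all genes were low). At least 2-fold below both fibroblasts were 6 of the 19, against 3.86% of all genes, and none was 2-fold above both, against 3.51% of all genes.

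Of 28 measured growth factors and receptors, 5 were low (Igf2, Igfbp3, Igfbp5, Mdk and Vegfd), 1 was high (Hbegf) and 22 met neither rule, against 0.563% of all genes low and 0.496% high. Vegfd, a ligand for lymphatic endothelium, read 193 in ADSC, against 805 in MNF and 1201 in MAF. Mdk, the heparin-binding factor midkine, read 919.6 in ADSC, against 6261 in MNF and 3852 in MAF, but a second Mdk probe read 4405 in ADSC, 4000 in MNF and 3628 in MAF and did not show the difference. Lifr, the receptor for leukaemia inhibitory factor, read 93.2 in ADSC, against 519 in MNF and 1048 in MAF. Gpc3, a heparan sulfate proteoglycan that restrains growth, read 309.6 in ADSC, against 1493 in MNF and 1517 in MAF.

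The low members included some genes of the extracellular matrix and its processing. Of 13 general fibroblast matrix genes and 15 matrix proteases and inhibitors measured, none was 4-fold below both fibroblasts, against 0.563% of all genes. With a share this small, finding none says little. At least 2-fold below both were 3 of the 13 (23.1%) and 4 of the 15 (26.7%), against 3.86% of all genes. At least 2-fold above both were 1 of the 13 and 0 of the 15, against 3.51% of all genes. Tgfbi, a collagen-binding protein induced by TGF-beta, read 326 in ADSC, against 15339.8 in MNF and 8959 in MAF, 27.5-fold below the nearer fibroblast. Prelp, a leucine-rich proteoglycan that anchors basement membranes, read 322 in ADSC, against 6011 in MNF and 14795 in MAF, 18.6-fold below. Pcsk5, a proprotein convertase that activates secreted precursors, read 65.7 in ADSC, against 2332 in MNF and 2008 in MAF, 30.6-fold below. In ADSC all 3 were under the median intensity, 357.5, and in both fibroblasts they were well above the median. Fndc1 read 442, 3084 and 5374, Cpxm1 588, 2812 and 3781, Thbs3 (a thrombospondin) 151, 1223 and 719.8, Mfap2 (of microfibrils) 169, 2659.9 and 752 and Col18a1 (the source of endostatin) 2349, 11182 and 9595 in ADSC, MNF and MAF. Of 14 measured TGF-beta targets, Tgfbi was low, Inhba was high and 12 met neither rule, against 0.563% of all genes low and 0.496% high.

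The proximal promoters of the genes that led each direction among those with an entry are shown because these genes head the members and their motif content can be set against all promoters. They run from 250 bases before to 50 bases after the start in RefSeq on GRCm38.p6, 5′ to 3′ on the strand of the gene, with TATAAA and CCAAT boxes on either strand in capitals. Acsbg1 lies at chr9:54661836-54662135 on the minus strand, Inhba at chr13:16011601-16011900 on the plus strand, Sfrp2 at chr3:83766071-83766370 on the plus strand and Pcsk5 at chr19:17837583-17837882 on the minus strand.
Acsbg1: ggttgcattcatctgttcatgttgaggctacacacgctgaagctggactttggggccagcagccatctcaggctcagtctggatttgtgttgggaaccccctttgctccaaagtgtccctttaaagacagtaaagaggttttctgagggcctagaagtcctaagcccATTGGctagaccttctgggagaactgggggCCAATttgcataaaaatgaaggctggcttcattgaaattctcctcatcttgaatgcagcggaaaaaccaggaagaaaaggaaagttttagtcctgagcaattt
Inhba: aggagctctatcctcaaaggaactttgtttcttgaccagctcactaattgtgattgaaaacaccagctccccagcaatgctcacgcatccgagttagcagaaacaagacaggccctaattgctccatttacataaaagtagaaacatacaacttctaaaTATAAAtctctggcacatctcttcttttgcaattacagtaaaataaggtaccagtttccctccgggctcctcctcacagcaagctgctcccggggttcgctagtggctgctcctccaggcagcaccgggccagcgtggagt
Sfrp2: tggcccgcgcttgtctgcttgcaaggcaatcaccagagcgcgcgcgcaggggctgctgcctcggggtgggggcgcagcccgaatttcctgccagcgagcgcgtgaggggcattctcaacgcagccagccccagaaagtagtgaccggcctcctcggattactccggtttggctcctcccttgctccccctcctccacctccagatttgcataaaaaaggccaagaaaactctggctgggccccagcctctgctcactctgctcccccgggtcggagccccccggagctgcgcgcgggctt
Pcsk5: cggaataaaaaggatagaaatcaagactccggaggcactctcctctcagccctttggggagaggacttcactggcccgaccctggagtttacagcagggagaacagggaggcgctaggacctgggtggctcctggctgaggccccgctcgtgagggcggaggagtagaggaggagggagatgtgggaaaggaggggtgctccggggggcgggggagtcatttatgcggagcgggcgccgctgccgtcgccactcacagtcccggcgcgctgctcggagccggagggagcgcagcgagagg
Acsbg1 holds 2 CCAAT boxes and Inhba 1 TATAAA, and neither motif is in the windows of Sfrp2 and Pcsk5.

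Of the members, 38 high and 63 low genes had such a promoter, as had 10791 of all measured genes. TATAAA was found on either strand in 18.4% of the high and 9.52% of the low promoters, against 9.05% of all. CCAAT was found in 36.8% of the high and 31.7% of the low promoters, against 38.3% of all. GGAATG, the letters bound by TEAD factors, stood in 23.7% of the high and 9.52% of the low promoters, against 12.4% of all. TGANTCA, the AP-1 site, stood in 10.5%, 6.35% and 5.78%, TTGCNNAA, bound by C/EBP factors, in 15.8%, 7.94% and 8.56%, GGGCGG, of Sp1, in 55.3%, 55.6% and 58.4%, and CANNTG, the E-box, in 68.4%, 63.5% and 65.4% of the high, low and all promoters. The motifs can overlap one another. With 38 high promoters, 1 promoter more or less moves a share noticeably, and a match is a description of letters only.

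Transcription factors of development were present among the low genes. Nfia, a nuclear factor I protein, read 309 in ADSC, against 4557 in MNF and 2297 in MAF. Prrx2, a homeobox factor of limb and skin mesenchyme, read 250.3 in ADSC, against 2299.9 in MNF and 1831 in MAF, 7.31-fold below the nearer fibroblast. Isl1, a homeobox factor of heart and limb progenitors, was dim even in the fibroblasts, at 28.9 in ADSC, against 264 in MNF and 266 in MAF. Eya1, a transcriptional coactivator of organ formation, read 27.7 in ADSC, against 546 in MNF and 121 in MAF, and is 1 of the 7 low genes under 4-fold when counted from 38.5. Of 25 measured limb, trunk and body wall factors, Prrx2 and Isl1 were the 2 that met the rule, against 0.563% of all genes low. Rxra, the shared partner of nuclear receptors, read 554 in ADSC, against 3765 in MNF and 2316 in MAF, a difference that both of its probes showed. Nr1h3, the liver X receptor alpha, read 64.5 in ADSC, against 289 in MNF and 635 in MAF. Tbl1xr1, a corepressor subunit, read 252 in ADSC, against 1101 in MNF and 1314 in MAF.

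Hox genes, which record the position of origin, did not meet the rule. None of 7 anterior, 8 central and 6 posterior genes measured was 4-fold above or below both, against 0.496% and 0.563% of all genes. With shares this small, finding none says little. Hoxb2 read 4783 in ADSC, against 636 in MNF and 4948 in MAF. Hoxa5 read 3444 in ADSC, against 316 in MNF and 8189 in MAF, so for these anterior and central genes ADSC and MAF were high and MNF low. Hoxc6 read 11812 in ADSC, against 5786 in MNF and 92.2 in MAF. Hoxc8 read 4237 in ADSC, against 1869 in MNF and 72.0 in MAF, so for these ADSC and MNF were high and MAF low. Hoxd8, at 1434 in ADSC, against 1584 in MNF and 68.9 in MAF, and Hoxc4, at 2533 in ADSC, against 1061 in MNF and 114 in MAF, were also low in MAF. The central genes had a median log2 difference of 1.13 from the mean of the fibroblasts, against -0.03 for all genes. Of these 8, Hoxb7, Hoxc6 and Hoxc8 (37.5%) were at least 2-fold above both, against 3.51% of all genes.

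Some receptors and enzymes of vessel tone were among the low members, while the serotonin receptor Htr2b was a high one. Agtr2, the type 2 angiotensin receptor, read 139 in ADSC, against 2726 in MNF and 2283 in MAF, 16.5-fold below the nearer fibroblast. Pde5a, the cyclic GMP phosphodiesterase, read 281 in ADSC, against 4676 in MNF and 2338 in MAF, 8.32-fold below, though its second probe was dim in all samples (56.4 in ADSC, 92.1 in MNF and 65.8 in MAF). Ednrb, an endothelin receptor, read 241 in ADSC, against 1469.8 in MNF and 1954 in MAF. Ace, the angiotensin-converting enzyme, read 26.2 in ADSC, against 118 in MNF and 608 in MAF, and Adm, the vasodilator peptide adrenomedullin, read 501 in ADSC, against 2139.5 in MNF and 13487 in MAF. Ace was at the bottom of the intensity range in ADSC, and Ace is also 1 of those 7 low genes. For Adm, MAF was far above both other samples.

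The low members also included some genes with roles in innate immunity, while Il1a was a high member. Of 17 measured chemokine, cytokine and acute phase genes 1 was low and none high (median log2 difference 0.09), and of 4 complement genes 1 was low, against 0.563% of all genes low and 0.496% high. Sirpa, the receptor for CD47 on myeloid and some stromal cells, read 568 in ADSC, against 4883 in MNF and 5336 in MAF, 8.60-fold below the nearer fibroblast. Cfb, complement factor B, read 389 in ADSC, against 3109 in MNF and 2758 in MAF, Hp, haptoglobin, read 73.0 in ADSC, against 453 in MNF and 355 in MAF, and Tlr2, a receptor for bacterial lipoproteins, read 54.7 in ADSC, against 331 in MNF and 236 in MAF. Laptm5, a lysosomal protein of leukocytes, read 296 in ADSC, against 1257 in MNF and 17038 in MAF, and Sla, a Src-like adaptor of leukocytes, read 37.4 in ADSC, against 316 in MNF and 924 in MAF. Laptm5 and Sla were brightest in MAF, as were the 4 macrophage markers described above, of which Cd68 read 340.5 in ADSC, against 167 in MNF and 5919 in MAF. The part of leukocytes in MAF was not tested. Map3k14, a kinase of noncanonical NF-kappa-B signalling, read 239.9 in ADSC, against 1314 in MNF and 1784 in MAF.

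The metabolic genes among the low members included Adh1, an alcohol and retinol dehydrogenase, at 320.3 in ADSC, against 9240 in MNF and 5495 in MAF, 17.2-fold below the nearer fibroblast. Ppp1r3c, which targets a phosphatase to glycogen, read 69.9 in ADSC, against 962 in MNF and 2750.5 in MAF. Cdo1, the cysteine dioxygenase, read 164 in ADSC, against 4595 in MNF and 879.7 in MAF, in the direction opposite to that of the cysteine-producing Cth. Cyp7b1, an oxysterol hydroxylase, read 514 in ADSC, against 2381 in MNF and 4016 in MAF, and Aldoc, an aldolase, read 462 in ADSC, against 2132 in MNF and 3147 in MAF. Capn6, a calpain-like protein of muscle and placenta, read 201 in ADSC, against 2480.2 in MNF and 2071 in MAF. Rpl22, a ribosomal protein gene, read 452 in ADSC, against 2056 in MNF and 1868 in MAF, whereas the ribosomal protein genes Rps16 and Rpl35a were high members. Outside the 15 low genes that led the order, the log2 differences to the nearer fibroblast, counted from 38.5, ran from -1.06 for Cdhr4 to -2.89 for Nfia.

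**Figure D4:**
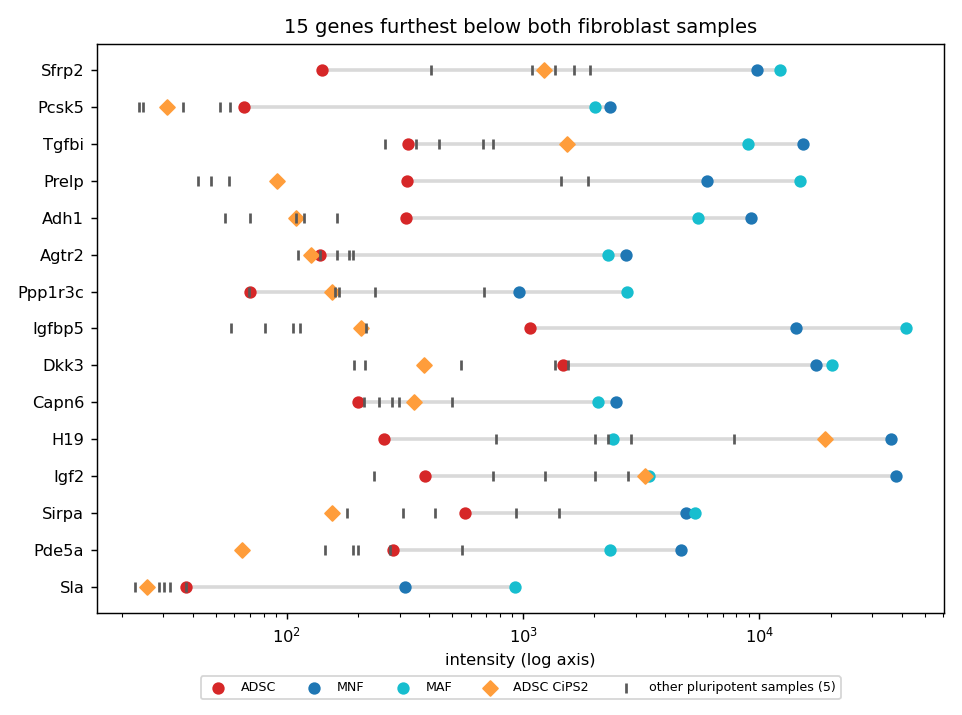
Intensity (log axis) in ADSC, MNF and MAF of the 15 genes furthest below both fibroblasts, 1 point per sample, with ADSC CiPS2 as a diamond and the 5 other pluripotent samples as short bars. In every gene the ADSC point lies at least 4-fold below both fibroblast points, as for Sfrp2 with 141 in ADSC, against 9749 in MNF and 12228 in MAF, and for Igf2 and H19 the fibroblast points lie far apart.

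No listed fat cell gene was among the members. Of 30 listed adipogenic regulators and fat cell genes, 19 were measured and none was 4-fold above or below both fibroblasts. Of all genes, only 0.496% were above and 0.563% below, so finding none among 19 says little. The median log2 difference was -0.34, against -0.03 for all genes. Cebpa, a regulator of fat cell differentiation, read 193 in ADSC, against 249.6 in MNF and 439 in MAF. Lpl, the lipoprotein lipase, read 4815 in ADSC, against 45641 in MNF and 4414 in MAF. Of 12 listed housekeeping genes, 8 were measured and none met the rule. Their median log2 difference from the mean of the fibroblasts was -0.04 and the largest was 3.00. Of these 8, 1 (12.5%) was at least 2-fold above both fibroblasts, against 3.51% of all genes.

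Of the members, 6 had more than 1 probe: Cstf3, Mdk, Pde5a, Rxra, Tbl1xr1 and Tenm3. The second probe of Cstf3, a subunit of the cleavage stimulation factor for polyadenylation, read 1420 in ADSC, 339 in MNF and 1153 in MAF and did not meet the rule. Nor did the second probe of Tbl1xr1, at 150 in ADSC, 115 in MNF and 119 in MAF. The second probe of Tenm3, a teneurin adhesion protein of neurons, read 167 in ADSC, 345 in MNF and 515 in MAF, lower in ADSC but by less than 4-fold from MNF.

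The embryonic fibroblasts (MEF) of other sets gave a further comparison. Among the 4 MEF samples is a sample titled wildtype, and the titles of the others give no genotype. Because sets were normalized separately, each MEF sample was set against the embryonic stem cells of its own set, and ADSC against ESC2. On this scale 50 of the 67 high genes were above every measured MEF, against 22.7% of all genes, and 42 of the 76 low genes were below every measured MEF, against 27.7% of all genes. For Inhba the log2 difference to ESC was 7.24 in ADSC and 1.45 to 4.42 in the 4 MEF samples. For Sfrp2 it was -3.27 in ADSC and 3.44 to 5.26 in the MEF samples. For H19 it was -3.47 in ADSC and 4.17 to 6.77 in the MEF samples, so the low Sfrp2 and H19 of ADSC stood apart from all fibroblasts measured. Of the 2 large high members Foxs1 and Tnfrsf12a, Foxs1 was 6.25 in ADSC and 2.72 to 4.61 in MEF, while Tnfrsf12a was 4.01 in ADSC and reached 4.12 in a MEF sample. The choice of the members by their level in ADSC is part of these counts.

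The high genes were mostly lower in ADSC CiPS2 than in ADSC. Of 67 high genes, 52 were lower in ADSC CiPS2 than in ADSC, 24 of them at least 4-fold, and 15 were higher, 3 of them at least 4-fold (Elf3, Myl7 and Gsta4). Of all genes, 6.85% were at least 4-fold lower and 5.99% at least 4-fold higher. The median log2 difference was -1.07, against 0.04 for all genes. Inhba read 33.9 in ADSC CiPS2, against 5529 in ADSC. Acsbg1 read 63.2 in ADSC CiPS2, against 2495 in ADSC. Foxs1 read 229 in ADSC CiPS2, against 18813 in ADSC. For these 3 genes ADSC CiPS2 was close to ESC2, which read 36.7 for Inhba, 68.2 for Acsbg1 and 247 for Foxs1. In all, ADSC was at least 4-fold above all 6 pluripotent samples for 20 of the high genes, against 3.44% of all genes, and for 9 high genes the median of the pluripotent samples was at or above ADSC, against 53.0% of all genes. Because the members were chosen for a high level in ADSC, a lower level elsewhere is partly built into these counts.

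The low genes lay on both sides of ADSC. Of 76 low genes, 43 were higher in ADSC CiPS2 than in ADSC, 15 of them at least 4-fold, and 33 were lower, 7 of them at least 4-fold, against the same shares of all genes (5.99% higher and 6.85% lower). The median was 0.28, against 0.04 for all genes. Mdk, at 20857 in ADSC CiPS2 against 919.6 in ADSC, and Laptm5, at 2459.7 in ADSC CiPS2 against 296 in ADSC, were among those higher in the pluripotent line. The second Mdk probe read 8955 in ADSC CiPS2 against 4405 in ADSC, a smaller difference. Pcsk5, at 31.2 in ADSC CiPS2 against 65.7 in ADSC, was lower there. ADSC CiPS2 was within 2-fold of ESC2 for 49 of the 67 high and 60 of the 76 low genes, against 91.9% of all genes. Over all genes the correlation of ADSC CiPS2 was 0.969 with ESC2 and 0.827 with ADSC.

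Compared with the 3 other CiPSC lines of set 2, ADSC CiPS2 was on the side of ADSC for part of the members. At least 2-fold above all 3 lines were 13 of 67 high genes (19.4%), against 1.56% of all genes, and none was 2-fold below all 3. At least 2-fold below all 3 lines were 10 of 76 low genes (13.2%), against 1.98% of all genes, and 3 were above all 3 (Tgfbi, H19 and Prrx2). The median log2 difference of ADSC CiPS2 from the mean of the other lines was 0.61 over the high genes and -0.50 over the low genes, against -0.0046 over all genes. Of the high genes 48 were above that mean, against 49.8% of all genes, and of the low genes 55 were below it, against 50.2%.

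Small RNAs made up 7 of the 13 high genes. The 13 were Snora20, Snora81, Snora30, Snora3, Snora41, AF357399, Rny1, Serpinb9b, Krt8, Tnfrsf12a, 1810037I17Rik, Cstf3 and Tmem59l. Snora81 read 2235 in ADSC CiPS2, against 224 in MNF CiPS1, 146 in MAF CiPS3 and 194 in CiPS45, and its level in ADSC was 1829. Snora20 read 323 in ADSC CiPS2, against 109 in MNF CiPS1, 27.7 in MAF CiPS3 and 27.8 in CiPS45, and its level in ADSC was 2356. Without small noncoding RNA genes, 6 of 58 high genes were at least 2-fold above all 3 lines, against 1.45% of all genes. Over all 43 snoRNAs the median intensity was 246 in ADSC CiPS2, against 175.5 in MNF CiPS1, 102.1 in MAF CiPS3, 112 in CiPS45, 116 in OSKM iPS2 and 151.7 in ESC2. ADSC CiPS2 had the highest level of the 4 CiPSC lines for 34 of them (79.1%), against 24.0% of all genes. It was also highest for all 4 snRNAs, 1 of 2 Y RNAs and 29 of 60 miRNAs (48.3%).

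Among the other high genes, Krt8 read 8986 in ADSC CiPS2, against 558 in MNF CiPS1, 1455 in MAF CiPS3 and 3956 in CiPS45, and Tnfrsf12a read 4377 in ADSC CiPS2, against 741 in MNF CiPS1, 1119 in MAF CiPS3 and 1697 in CiPS45. Serpinb9b read 591 in ADSC CiPS2, against 72.1 in MNF CiPS1, 99.4 in MAF CiPS3 and 254 in CiPS45. 1810037I17Rik read 952 in ADSC CiPS2, against 293 in MNF CiPS1, 147 in MAF CiPS3 and 335 in CiPS45. Each was thus above all 3 other lines, Krt8 also above ADSC itself. Cstf3 read 4216 in ADSC CiPS2, against 1206 in MNF CiPS1, 1151 in MAF CiPS3 and 1541 in CiPS45. Its second probe read 3230.3 in ADSC CiPS2, against 849 in MNF CiPS1, 2377 in MAF CiPS3 and 4887 in CiPS45, and did not put ADSC CiPS2 above all 3 lines.

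The 10 low genes at least 2-fold below the other lines were Sirpa, Pde5a, Fndc1, B3glct, Laptm5, Adamts9, Rpl22, Col18a1, Arvcf and Eya1. Fndc1 read 73.8 in ADSC CiPS2, against 626 in MNF CiPS1, 373 in MAF CiPS3 and 296 in CiPS45. Col18a1 read 3383 in ADSC CiPS2, against 10551 in MNF CiPS1, 10454 in MAF CiPS3 and 14032 in CiPS45. Rpl22 read 1259 in ADSC CiPS2, against 5631 in MNF CiPS1, 9234 in MAF CiPS3 and 4325 in CiPS45. Pde5a read 64.4 in ADSC CiPS2, against 554 in MNF CiPS1, 272 in MAF CiPS3 and 191 in CiPS45. Laptm5 read 2459.7 in ADSC CiPS2, against 18218 in MNF CiPS1, 6864 in MAF CiPS3 and 11018 in CiPS45. ESC2 was also below the 3 other lines for Fndc1 (115), Col18a1 (3520.2), Rpl22 (2047), Sirpa (180.6), Pde5a (144.5), B3glct (742), Laptm5 (5945) and Adamts9 (151.7). It was not below all 3 for Arvcf (454, with CiPS45 at 380) and Eya1 (120, with MAF CiPS3 at 115). Set against ESC2 alone, the median log2 difference of ADSC CiPS2 over the low genes was 0.0031, so the lower level was not found in that comparison.

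Tgfbi, H19 and Prrx2 were low in ADSC but at least 2-fold higher in ADSC CiPS2 than in the other 3 lines. H19 was low in ADSC, at 258, but read 18943 in ADSC CiPS2, against 771 in MNF CiPS1, 2020.2 in MAF CiPS3 and 7797 in CiPS45, with 2861 in ESC2. Igf2, next to it, read 3293 in ADSC CiPS2, against 233 in MNF CiPS1, 744 in MAF CiPS3 and 2790.4 in CiPS45, and so exceeded CiPS45 by less than 2-fold. Tgfbi read 1529.7 in ADSC CiPS2, against 679 in MNF CiPS1, 743 in MAF CiPS3 and 439 in CiPS45, and Prrx2 read 489 in ADSC CiPS2, against 179 in MNF CiPS1, 169 in MAF CiPS3 and 84.8 in CiPS45.

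**Figure D5:**
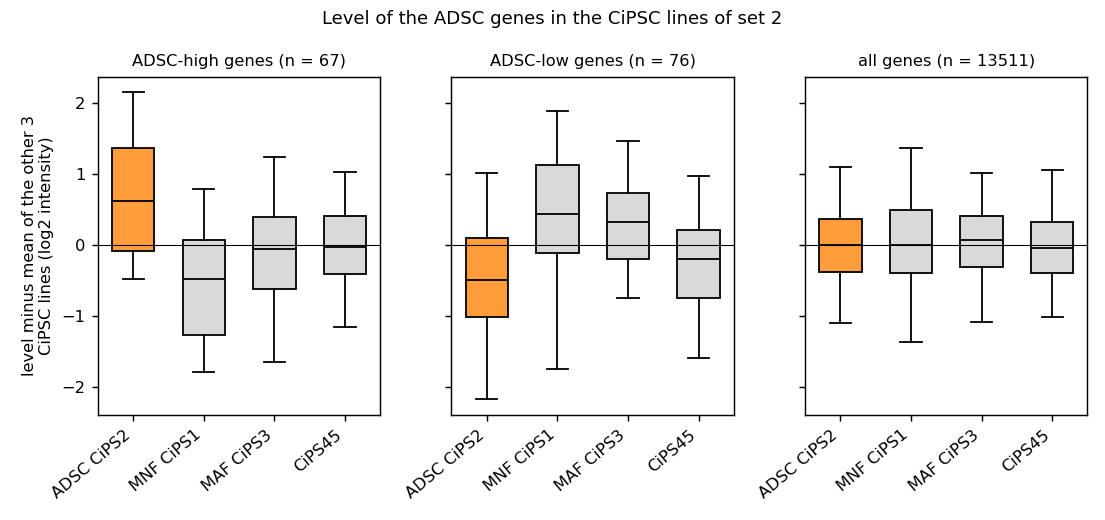
Log2 difference of each CiPSC line of set 2 from the mean of the 3 other lines (y axis) over the 67 genes high in ADSC, the 76 genes low in ADSC and all 13511 genes. Boxes show the quartiles and the median, and whiskers the 5th and 95th percentiles over genes. ADSC CiPS2 has a median of 0.61 for the high genes and -0.50 for the low genes, and MNF CiPS1 has -0.48 and 0.43.

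The other lines were read in the same way. MNF CiPS1 was at least 2-fold above the other 3 lines for 1 high gene and below for 9, and for the low genes above for 7 and below for 5, with 3.82% and 4.0% of all genes above and below. MAF CiPS3 was above for 1 and below for 3 high genes, and above for 3 and below for 1 low gene (all genes 1.07% and 1.92%). CiPS45 was above for none and below for 2 high genes, and above for 1 and below for 1 low gene (1.12% and 1.14%). Of the 67 high genes, 19 in MNF CiPS1, 32 in MAF CiPS3 and 32 in CiPS45 were above the mean of the other lines. Of all genes, 50.1%, 54.6% and 45.8% were above it. Of the 76 low genes 22, 25 and 48 were below that mean, against 49.9%, 45.4% and 54.2% of all genes. In CiPS45 most of the low genes were thus below it, but so were most of all genes. Over all 13511 genes, the difference of each line from that mean was also correlated with ADSC minus the mean of the fibroblasts. The correlation was 0.33 for ADSC CiPS2, 0.27 for CiPS45, -0.06 for MAF CiPS3 and -0.44 for MNF CiPS1. A lean to the side of ADSC on this measure was therefore not particular to ADSC CiPS2. The 4 lines are compared with one another, so a line that stands on one side moves the mean of the others to the opposite side.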

How the data were processed

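Total RNA was labelled with Cy5 and hybridised to the Mouse OneArray v2 of Phalanx, per the labels. The authors deposited intensity values on a linear scale, with a column for each sample. The design text states 3 replicates for every sample of set 2 and a separate normalization of 5 sets. A column therefore appears to be an average, and single arrays were not analysed here. How the authors normalized, corrected background and removed probes is not given in the sources used here. The 9 samples of set 2 had medians of 356.7 to 358.8, their quantiles differed by at most 3.26%, and 9.32 to 9.66% of values per sample were under 50. The number of arrays limits the precision.

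Deposited intensities were converted to log2. Of 26423 probes in the series, 21876 had 1 gene and 21825 of these matched RefSeq (GRCm38.p6) by gene ID, and 15437 had values in set 2. Where a gene had several probes, the one measured in most samples, then the brightest, was used. Genes named were the 15 with the largest smaller difference each way, up to 6 members of each gene list, the 10 members whose level in ADSC CiPS2 lay furthest from the other lines, the 3 genes on either side of each limit and fixed markers. Other members are named as examples of a function, chosen, like the function groups, after their values were seen. The members and the 31 gene lists were chosen with earlier results of these data known. The selection was tested on simulated data. Python 3.11.15, pandas 2.3.3, numpy 2.4.6 and matplotlib 3.10.9 were used. Alternatives were the fold limit, scaling, an offset of 50, averaging of probes, a filter on dim genes and the samples compared.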

Additional observations from a re-analysis of the deposited data

Results flagged for a closer look

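The named genes were screened over the 4 CiPSC lines of set 2 for a line far from the other 3 (51 genes). Chance flags about 1 in 20 such groups, so a few are to be expected among 51. That rate does not hold for genes named because ADSC CiPS2 lay far from the other lines, Snora81 among them. For these a flag of ADSC CiPS2 is partly built in. Elf3, the epithelial ETS factor that was high in ADSC, was highest in MNF CiPS1, at 6913, with the other 3 lines between 3614 and 3792. Hbegf, the EGF receptor ligand, was lowest in ADSC CiPS2, at 417.3, although it was high in ADSC. Igfbp3 was lowest in MNF CiPS1, at 91.8. Isl1 was lowest in CiPS45, at 57.6. Snora81 was highest in ADSC CiPS2, at 2235, with the other 3 lines between 145.9 and 224.

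The comparisons used probes with a gene name. Of the 601 probes of set 2 without one, 8 were at least 4-fold above both fibroblasts in ADSC and 3 were at least 4-fold below both.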

How the results depend on the processing

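The 67 high and 76 low genes depended most on the limit and on the samples compared. A 2-fold limit gave 474 high and 522 low genes and an 8-fold limit 13 and 16. Against MNF alone there were 759 and 573, against MAF alone 162 and 340, and against the mean of both 215 and 254. Adding 50 to each intensity left 37 low genes and 50 high ones. That offset by construction shrinks differences between dim values, and of the 51 named genes it left 5 short of the limit, Hp (-1.72), Isl1 (-1.99), Laptm5 (-1.92), Rpl22 (-1.93) and Vegfd (-1.82). Averaging the probes of a gene put Cstf3 (0.89), Mdk (-0.89) and Pde5a (-1.64) short of it. Quantile normalization and equal medians each kept 67 of the high and 75 of the low members. No named gene changed direction under these 4 settings. In ADSC CiPS2, the median of the high genes lay between 0.42 and 0.72 under the alternatives, and that of the low genes between -0.67 and -0.34 except against ESC2 alone, where it turned to 0.0031. The cause was not tested. Leaving out single CiPSC lines and small noncoding RNA genes were alternatives chosen after seeing the data. No paired analysis was possible because each population had 1 sample. Dim spots and averaged arrays limit these values: 25 low genes had a higher side under 500, and the spread between the 3 arrays was not analysed here.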
